A study of Mus musculus with 13 samples.

Results

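The 9 genes described here encode potassium channel proteins of heart muscle and of the cells that wrap small vessels. They are Kcnj2, Kcnj3, Kcnj5, Kcnj8, Kcnq1, Kcne1, Kcnh2, Kcnk3 and Abcc9, taken by symbol from the 27998 genes of the deposited matrices, and none of them is a sodium channel gene. Potassium channels let potassium leave the cell, which sets the resting potential and ends each action potential. Inward rectifiers hold the resting potential, delayed rectifiers open late in the action potential and repolarize the cell, and two-pore channels carry a background current. The ATP-sensitive channel is built from an inward rectifier pore (Kcnj8 or Kcnj11) and a sulphonylurea receptor subunit (Abcc8 or Abcc9), and in small vessels Kcnj8 and Abcc9 are known for setting vascular tone.

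The series holds droplet single-cell RNA-seq of wild-type C57Bl/6J mice, which carried no mutant allele and received no agent, at gestation days E8.5 and E10.5, then E12.5 and E14.5, then E16.5, and at P3 (3 days after birth). At E8.5 and E10.5 the dissociated material was the embryo with head and limbs removed, and from E12.5 on it was the heart. The labels list 13 samples, and 10 matrices of unique molecular identifier (UMI) counts were analysed, with 2 libraries at each stage from E10.5 to E16.5, 1 at E8.5 and 1 matrix for both P3 samples. Replicate 1 of E16.5 is listed as 2 samples and has 1 matrix, counted as 1 library. The P3 barcodes end in the suffix 1 or 2, but no source ties a suffix to a sample, so P3 was counted as 1 library. The E8.5 library is replicate 2, its replicate 1 being not analysed here, and no source says if libraries of the same stage stem from separate animals or litters, so each p measures the spread between libraries.

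Barcodes with at least 2000 UMIs and at least 1% mitochondrial UMIs were kept: 4593 at E8.5, 12132 and 11732 at E10.5, 3984 to 5593 in the libraries from E12.5 to E16.5, and 10265 at P3. At most 181 kept barcodes were shared by any pair of libraries. Barcodes with Tnnt2, a sarcomere troponin, at 1500 counts in 1000000 UMIs (CPM) or above were called cardiomyocytes. They numbered 119 at E8.5, 108 and 99 barcodes at E10.5, 1729 and 2298 barcodes at E12.5, 2815 and 2377 barcodes at E14.5, 3578 and 3444 barcodes at E16.5 and 7133 barcodes at P3, with a median of 13194 to 25403 UMIs per barcode. All 11 cardiomyocyte markers, Tnnt2 of the rule among them, had at least 1 UMI in every library, which describes the class and does not test it. The median mitochondrial share of cardiomyocyte UMIs was 2.62% at E8.5, 4.03 to 4.10% at E10.5, 6.53 to 6.95% at E12.5, 8.43 to 8.54% at E14.5, 10.7 to 11.1% at E16.5 and 22.0% at P3. Refits with the study's mitochondrial ceiling and without the 1% minimum are given at the end. Beyond these, the part of the mitochondrial share in the results was not tested. Values below are CPM of the UMIs summed over a class of barcodes in a library, given for replicate 1 and then replicate 2. Differences are log2 fold changes (± SE) from edgeR's quasi-likelihood test on those sums, with p adjusted by Benjamini-Hochberg across the genes tested in the comparison, read at a threshold of 0.05.

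In cardiomyocytes, Kcnj2, Kcnq1 and Kcne1 rose at each step from E12.5 to E16.5, whereas Kcnk3 was highest at E12.5 among the embryonic stages. Between E12.5 and E16.5, 7 of the 9 members rose and 1 fell, against 29.7% of the 14471 tested genes higher and 28.6% lower. From E10.5 to E12.5, 5 members rose by edgeR and by DESeq2 and 7 at an unadjusted p under 0.05 by edgeR, and 0 fell by any of these (16.2% of genes higher, 13.5% lower), and stage and the change from trunk tissue to dissected hearts cannot be told apart there. From E12.5 to E14.5, 4 rose and 5 fell (18.3% higher, 15.9% lower), and from E14.5 to E16.5, 7 passed in either direction (39.4% of genes).

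Kcnj2 (chr11:111066164-111076821, plus strand, build GRCm38/mm10, GENCODE annotation, as for the other members) encodes Kir2.1, a pore subunit of the classical inward rectifier current IK1. No UMI of Kcnj2 was seen among the 2919390 cardiomyocyte UMIs of E8.5, which allows a level of up to 1.03 CPM. Its level was 0.607 and 1.44 CPM at E10.5, 1.69 and 1.83 CPM at E12.5, 4.15 and 3.91 CPM at E14.5, 10.3 and 10.1 CPM at E16.5 and 14.1 CPM at P3. The libraries of successive stages from E10.5 to E16.5 did not overlap. Both E10.5 levels were below those of 3 counts in these sums (1.82 and 2.16 CPM), however. The change from E10.5 to E12.5 did not pass (0.92 ± 0.64, adjusted p = 0.372). Kcnj2 rose by 1.20 ± 0.13 from E12.5 to E14.5 (adjusted p = 1.41e-06) and by a further 1.53 ± 0.10 to E16.5 (adjusted p = 1.32e-09), which made a 6.66-fold rise over E12.5 (2.74 ± 0.11, adjusted p = 4.82e-13).

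Kcnj3 and Kcnj5 encode Kir3.1 and Kir3.4, which together form the acetylcholine-activated channel through which the vagus nerve slows the heart. Kcnj3 (chr2:55435970-55598145, plus strand) was at 0.685 CPM in E8.5 cardiomyocytes, 6.68 and 10.1 CPM at E10.5, 11.9 and 12.2 CPM at E12.5, 9.19 and 8.48 CPM at E14.5, 13.1 and 13.4 CPM at E16.5 and 46.1 CPM at P3. Kcnj5 (chr9:32314707-32344350, minus strand) was at 24.7 CPM at E8.5, 23.1 and 25.2 CPM at E10.5, 18 and 19.0 CPM at E12.5, 14.9 and 13.9 CPM at E14.5, 18.7 and 20.1 CPM at E16.5 and 39.9 CPM at P3. Kcnj5 was thus present at E8.5 at a level where Kcnj3 gave 2 UMIs. Over all cardiomyocytes both genes fell from E12.5 to E14.5, Kcnj3 by 0.43 ± 0.08 (adjusted p = 5.85e-04) and Kcnj5 by 0.36 ± 0.07 (adjusted p = 0.00106). Both rose again by E16.5, Kcnj3 by 0.78 ± 0.08 (adjusted p = 5.08e-07) and Kcnj5 by 0.63 ± 0.07 (adjusted p = 1.70e-06). Their levels by chamber, given below, moved in opposite directions from E12.5 to E14.5.

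The components of the ATP-sensitive channel differed in cardiomyocytes. Abcc9 (chr6:142587862-142702315, minus strand), which encodes the sulphonylurea receptor SUR2, was at 8.91 CPM at E8.5, 23.1 and 18.7 CPM at E10.5, 32.5 and 35.9 CPM at E12.5, 29.4 and 28.5 CPM at E14.5, 37.2 and 36.3 CPM at E16.5 and 97.2 CPM at P3. Kcnj8 (chr6:142564837-142571614, minus strand), which encodes the pore subunit Kir6.1, had no UMI in E8.5 or E10.5 cardiomyocytes and was at 0.587 and 0.859 CPM at E12.5, 2.26 and 2.07 CPM at E14.5, 2.11 and 2.79 CPM at E16.5 and 2.73 CPM at P3. The 0 at E10.5 allows up to 0.988 CPM over both libraries, above the E12.5 level, so no fold is given. Kcnj8 rose by 1.57 ± 0.23 from E12.5 to E14.5 (adjusted p = 4.62e-05), and its change to E16.5 was 0.36 ± 0.18 (adjusted p = 0.138). In free RNA, the UMIs of barcodes with at most 100 UMIs, Kcnj8 was at 1.20 and 1.30 CPM at E12.5, 4.83 and 6.69 CPM at E14.5 and 10.7 and 7.95 CPM at E16.5, above the cardiomyocyte level of each library, and its part in the cardiomyocyte values was not tested. Abcc9 rose from E10.5 to E12.5 (0.79 ± 0.16, adjusted p = 9.75e-04), fell by 0.23 ± 0.07 to E14.5 (adjusted p = 0.0128) and rose by 0.54 ± 0.07 to E16.5 (adjusted p = 4.54e-06). The fall of Abcc9 did not pass without E14.5 replicate 1 (adjusted p = 0.0786) or without E14.5 replicate 2 (adjusted p = 0.131).

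Kcnq1 and Kcne1 encode the pore and the accessory subunit of the slow delayed rectifier IKs. Kcnq1 (chr7:143106362-143427042, plus strand) was at 1.37 CPM at E8.5, 1.82 and 1.44 CPM at E10.5, 6.18 and 6.65 CPM at E12.5, 10.4 and 11.3 CPM at E14.5, 20.8 and 21.5 CPM at E16.5 and 34.1 CPM at P3. Kcne1 (chr16:92345982-92359468, minus strand) was at 11.6 CPM at E8.5, 23.7 and 25.2 CPM at E10.5, 95.8 and 83.1 CPM at E12.5, 175 and 170 CPM at E14.5, 194 and 182 CPM at E16.5 and 244 CPM at P3. Both subunits rose at each step from E10.5 to E16.5, the first Kcnq1 step resting on few counts. For Kcnq1 the steps were 2.05 ± 0.43 (adjusted p = 0.00131), 0.76 ± 0.08 (adjusted p = 1.96e-06) and 1.16 ± 0.07 (adjusted p = 1.02e-09). The E10.5 levels of Kcnq1 were at or below those of 3 counts in these sums (1.82 and 2.16 CPM). Its first step ranged from 0.11 to 10.57 over the other settings and did not pass in all of them. For Kcne1 they were 1.97 ± 0.17 (adjusted p = 6.28e-08), 0.95 ± 0.08 (adjusted p = 1.19e-07) and 0.32 ± 0.08 (adjusted p = 0.00470). The last step of Kcne1 did not pass without E14.5 replicate 2 (0.30, adjusted p = 0.0609) or without E16.5 replicate 1 (0.26, adjusted p = 0.0648). The gene span of Kcnq1 is overlapped on the opposite strand by the antisense transcript Kcnq1ot1. Opposite-strand genes of the matrices also overlap Kcnj3 (Gm26794), Kcnh2 (Gm15589) and Abcc9 (5330439B14Rik). The paper lists reads antisense to genes as a class of their own, but does not state in words how the counting treated them.

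Kcnh2 (chr5:24319589-24351604, minus strand) encodes the pore of the rapid delayed rectifier IKr, known as ERG. Its cardiomyocyte level was 23.6 CPM at E8.5, 24.9 and 28.8 CPM at E10.5, 43.6 and 46.3 CPM at E12.5, 36.2 and 39.3 CPM at E14.5, 33.9 and 36.7 CPM at E16.5 and 61.3 CPM at P3. It rose by 0.84 ± 0.15 from E10.5 to E12.5 (adjusted p = 2.44e-04), fell by 0.25 ± 0.07 to E14.5 (adjusted p = 0.00856) and differed by 0.10 ± 0.07 between E14.5 and E16.5 (adjusted p = 0.259). Kcnk3 (chr5:30588170-30625271, plus strand) encodes the acid-sensitive two-pore channel TASK-1. It was at 8.22 CPM at E8.5, 21.2 and 29.5 CPM at E10.5, 84.0 and 90.0 CPM at E12.5, 53.8 and 54.7 CPM at E14.5, 33.3 and 40.6 CPM at E16.5 and 118 CPM at P3. Kcnk3 therefore rose by 1.89 ± 0.16 to E12.5 (adjusted p = 6.62e-08), then fell by 0.68 ± 0.08 (adjusted p = 3.02e-06) and by 0.36 ± 0.08 (adjusted p = 0.00146). Without E14.5 replicate 1 the fall of Kcnh2 did not pass (-0.19, adjusted p = 0.189), nor did the second fall of Kcnk3 without E16.5 replicate 1 (-0.24, adjusted p = 0.0631).

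Whether the smaller changes at E16.5 passed depended on the scaling. The scaling by trimmed mean of M-values (TMM) used above moved the median log2 fold change of all genes by 0.20 to 0.21 in the comparisons of E16.5 with E14.5 and E12.5, relative to division by library totals alone. By totals alone, Kcnj3 (0.14, adjusted p = 0.161), Abcc9 (0.10, adjusted p = 0.229) and Kcnj5 (0.07, adjusted p = 0.481) no longer passed between E12.5 and E16.5, Kcne1 no longer passed between E14.5 and E16.5 (0.12, adjusted p = 0.165), and Kcnh2 passed between E12.5 and E16.5 (-0.35, adjusted p = 2.59e-04, against -0.15 and adjusted p = 0.0647 with TMM, or 0.0462 with TMM and replicate number as a block). The uncalled Kcnh2 difference between E14.5 and E16.5 changed sign (-0.10, adjusted p = 0.275). Kcnj2, Kcnq1 and Kcnk3 passed in the same direction by both scalings. The Kcnj3 change from E12.5 to E16.5 was -0.02 when cardiomyocytes had to reach 3000 CPM of Tnnt2.

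**Figure D1:**
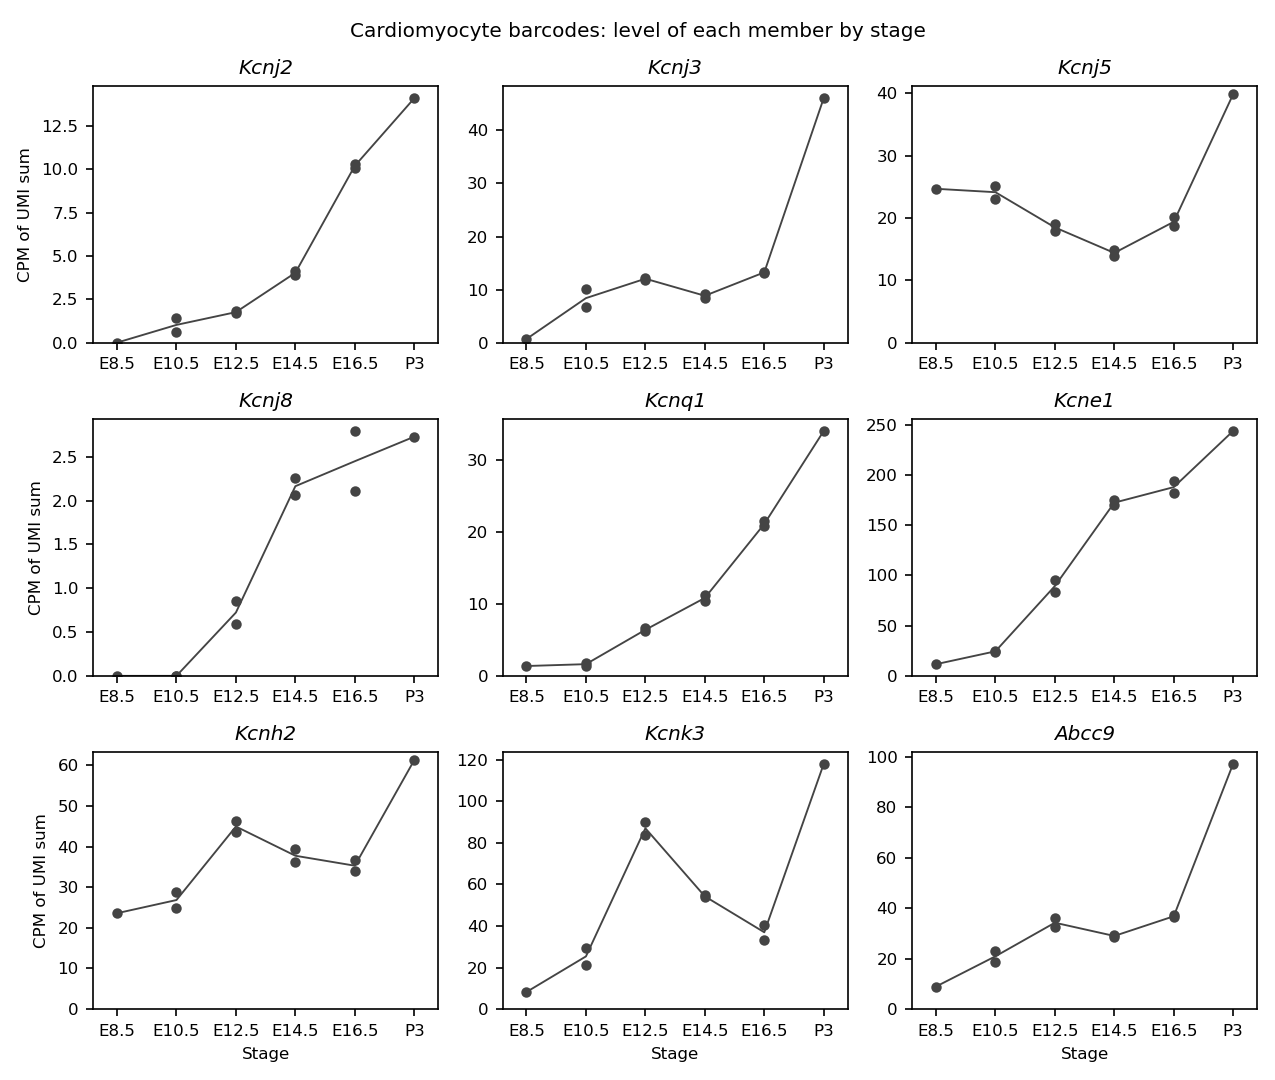
Level of each of the 9 genes in cardiomyocytes (CPM of summed UMIs, one panel per gene) against stage, with one point per library and a line through the stage means. Kcnj2 and Kcnq1 rose at each step from E12.5 to E16.5, and Kcnk3 peaked at E12.5 among the embryonic stages at 84.0 and 90.0 CPM before the P3 value of 118 CPM.

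The question of where in the heart each gene was used was addressed by splitting cardiomyocytes by chamber. The share of atrial transcripts (Sln and Myl4) among the UMIs of Sln, Myl4, Myl2 and Myl3 was required to be at least 0.6 for an atrial-like barcode and at most 0.4 for a ventricular-like one, and the chamber therefore rests on these 4 genes. Atrial-like barcodes numbered 239 and 288 at E12.5, 236 and 146 barcodes at E14.5, then 282 and 291 at E16.5, and ventricular-like ones 1420 and 1882, 2494 and 2154, and 3200 and 3050. Summed over the 9 atrial markers (the 2 used in the rule among them), atrial-like barcodes held 34763 to 56617 CPM in these libraries and ventricular-like ones 3091 to 15122 CPM. Since the rule itself sets part of this difference, the sum describes the classes and does not test them. At E8.5 and E10.5 the rule put 82 of 119, 70 of 108 and 58 of 99 cardiomyocytes in the atrial-like class, and the chambers were not compared there. The libraries give both chambers, so a fit with the library as a block was also run, and its value is given where it changes a call.

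The acetylcholine-activated pair Kcnj3 and Kcnj5 was higher in atrial-like barcodes at every stage compared, Kcne1 was higher in ventricular-like ones, and Kcnk3 went from near equality to an atrial excess. Of the 9 members, 2 were higher and 3 lower in atrial-like barcodes at E12.5 (15.9% and 18.5% of the 13590 genes tested), 5 higher and 2 lower at E14.5 (17.0% and 17.6%), while 7 passed in either direction at E16.5 (33.2%).

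Kcnj3 stood at 45.8 and 45.4 CPM in atrial-like and 7.08 and 7.75 in ventricular-like barcodes at E12.5, 69.8 and 64.0 against 3.96 and 4.92 CPM at E14.5, and 86.8 and 85.7 against 6.93 and 6.64 at E16.5. The log2 difference was 2.45 ± 0.10 (adjusted p = 1.14e-13), 3.77 ± 0.12 (adjusted p = 1.06e-15) and 3.51 ± 0.09 (adjusted p = 3.68e-17), the last being 11.4-fold. Kcnj5 was at 47.7 and 50.4 against 13.6 and 14.4 at E12.5, 69.0 and 58.5 against 10.0 and 10.7 CPM at E14.5, and 65.8 and 65.4 against 14.8 and 16 at E16.5, and the differences were 1.64 ± 0.09, 2.48 ± 0.10 and 1.94 ± 0.08 (adjusted p at most 6.51e-12). No library of one chamber reached the other for either gene. In endothelial barcodes of the same hearts, which should lack this channel, Kcnj3 was at 0 to 0.417 CPM and Kcnj5 at 0.332 to 0.761 CPM, and free RNA held 2.23 to 8.17 CPM of Kcnj3 and 3.34 to 10.2 CPM of Kcnj5 in these libraries. In replicate 2 of E16.5 free RNA had more Kcnj3 (8.17 CPM) than ventricular-like barcodes (6.64 CPM), and its part in the ventricular-like levels was not tested.

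The DNA before the start of both genes is shown because both were higher in atrial-like barcodes at each stage compared. The 250 bases before the annotated start are from RefSeq (GRCm38.p6), for Kcnj3 chr2:55435720-55435969 (plus strand) and for Kcnj5 chr9:32344345-32344594 (minus strand), written 5′ to 3′ of the gene, with capitals at the match to a T-box half-site.

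Kcnj3: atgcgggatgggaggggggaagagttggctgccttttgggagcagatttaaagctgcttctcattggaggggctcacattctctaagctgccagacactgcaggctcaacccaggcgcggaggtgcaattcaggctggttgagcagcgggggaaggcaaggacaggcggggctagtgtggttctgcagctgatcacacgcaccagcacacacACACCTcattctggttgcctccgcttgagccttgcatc

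Kcnj5: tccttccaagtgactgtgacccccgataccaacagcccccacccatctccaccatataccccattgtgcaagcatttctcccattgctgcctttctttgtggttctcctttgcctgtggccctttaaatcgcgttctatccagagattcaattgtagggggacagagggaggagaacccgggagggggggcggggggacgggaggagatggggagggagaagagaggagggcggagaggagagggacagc

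Both strands were searched for AGGTGT as a T-box half-site, for AGATAA as the motif of the zinc-finger factors of the heart, for TNAAGTG as the motif of NKX2-5, for AGGTCA as a nuclear receptor half-site, for TGTTTAC as a forkhead motif and for TATAAA as the box of the start site. The Kcnj3 window held AGGTGT on the minus strand, 38 to 33 bases before the start, and the Kcnj5 window held none of the 6 motifs. AGGTGT was found in 11.8% of the 32851 windows of this length in the table, so a single match is a description of these letters only.

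Kcne1 was the member with the strongest ventricular difference. It was at 30.2 and 21.0 CPM in atrial-like against 104 and 89.4 in ventricular-like barcodes at E12.5, 24.8 and 14.9 against 188 and 179 CPM at E14.5, and 17.0 and 18.3 against 209 and 199 at E16.5. The log2 differences were -2.09 ± 0.14 (adjusted p = 3.15e-10), -3.29 ± 0.17 (adjusted p = 2.87e-12) and -3.69 ± 0.15 (adjusted p = 8.55e-14), the last being 12.9-fold. Kcne1 was also plentiful in free RNA, at 41.8 to 134 CPM in barcodes of at most 100 UMIs in these hearts, while endothelial barcodes held 1.96 to 4.17 CPM. Its partner Kcnq1 was at 5.40 and 5.29 against 6.25 and 6.77 at E12.5, 7.58 and 6.94 against 10.7 and 11.6 CPM at E14.5, and 10.2 and 13.5 against 21.7 and 22.4 at E16.5. The Kcnq1 difference was -0.45 ± 0.17 at E12.5 (adjusted p = 0.0436, and 0.0512 with the library as a block, which ends the call), -0.78 ± 0.19 at E14.5 (adjusted p = 0.00255) and -1.07 ± 0.13 at E16.5 (adjusted p = 8.47e-07). The Kcnq1 call at E12.5 was lost without either library (adjusted p = 0.137 and 0.315), and the one at E14.5 without replicate 1 (-0.94, adjusted p = 0.0547).

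Kcnk3 was at 74.3 and 81.9 CPM in atrial-like and 83.6 and 90.4 in ventricular-like barcodes at E12.5, 89.0 and 95.7 against 50.9 and 52.7 CPM at E14.5, and 113 and 125 against 26.7 and 32.9 at E16.5. The atrial minus ventricular difference went from -0.32 ± 0.09 (adjusted p = 0.00750) through 0.65 ± 0.10 (adjusted p = 3.07e-05) to 1.85 ± 0.09 (adjusted p = 1.06e-12). The E12.5 sign depended on the setting. With totals alone as the scale it was -0.15 (adjusted p = 0.225), without replicate 1 it was -0.30 (adjusted p = 0.0642), and with a stricter chamber rule (shares of 0.8 and 0.2) it was 0.79. TMM moved the median of all genes by -0.16 to -0.18 in these chamber comparisons.

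Kcnj8 was low in both chambers and higher in the atrial-like class. It was at 1.49 and 1.49 against 0.481 and 0.820 CPM at E12.5 (0.99 ± 0.41, adjusted p = 0.0688), 7.84 and 6.94 against 1.78 and 1.80 at E14.5 (1.89 ± 0.28, adjusted p = 2.45e-05), and 10.8 and 13.3 against 1.42 and 1.83 at E16.5 (2.74 ± 0.22, adjusted p = 2.54e-09). At E16.5, 13.1% of atrial-like barcodes in each library had a Kcnj8 UMI, and 1.42% and 2.41% after thinning each barcode to 2000 UMIs. Endothelial barcodes, which held 20.4 and 18.6 CPM of Kcnj8 at that stage, showed one in 8.18% and 9.09%, and 2.73% and 2.08% after thinning, so the thinned shares lay in the same range. The 7 endothelial markers together were at 61.7 and 58.2 CPM in atrial-like and 28.0 and 35.6 CPM in ventricular-like barcodes at E16.5, with none of them at 0, and the 11 mural markers at 533 and 484 against 1174 and 1211 CPM, with 1 at 0 in each atrial-like library. The part of these in the Kcnj8 difference was not tested.

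Abcc9 did not differ beyond the spread at E12.5 (38.7 and 41.8 against 32.1 and 35.9 CPM, 0.08 ± 0.09, adjusted p = 0.562), was higher in atrial-like barcodes at E14.5 (36.7 and 47.6 against 29.2 and 27.7 CPM, 0.34 ± 0.12, adjusted p = 0.0283) and lower at E16.5 (25.7 and 29.6 against 38.3 and 37.1 CPM, -0.62 ± 0.11, adjusted p = 1.16e-04). Kcnj2 was at 11.2 and 7.02 against 10.2 and 10.4 at E16.5, and the chambers overlapped (-0.30 ± 0.17, adjusted p = 0.191). Kcnh2 was at 33.2 and 38.1 against 33.9 and 36.6 CPM at E16.5 (-0.15 ± 0.09, adjusted p = 0.249) and at 55.0 and 57.6 against 41.8 and 45.1 CPM at E12.5 (0.21 ± 0.08, adjusted p = 0.0523, and 0.0154 with the library as a block). With TMM, all libraries and no block neither gene passed at any of the 3 stages. By library totals Kcnh2 passed at E12.5 (0.37, adjusted p = 0.00223) and E14.5 (0.30, adjusted p = 0.0363) and Kcnj2 at E12.5 (0.75, adjusted p = 0.0480), as did Kcnj8 at E12.5 (1.16, adjusted p = 0.0413), while Kcnq1 no longer passed at E12.5 (-0.29, adjusted p = 0.227). Without E14.5 replicate 2 the Abcc9 difference at that stage was 0.10 (adjusted p = 0.672), and without E16.5 replicate 1 that of Kcnj2 was -0.73 (adjusted p = 0.0431).

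Whether the chamber difference itself moved between E12.5 and E16.5 was tested as an interaction, which 3 members passed upward and 2 downward (6.81% and 4.64% of genes). The atrial minus ventricular difference grew by 2.17 ± 0.13 for Kcnk3 (adjusted p = 1.55e-10), by 1.74 ± 0.42 for Kcnj8 (adjusted p = 0.00912) and by 1.06 ± 0.13 for Kcnj3 (adjusted p = 1.47e-05), and changed by -1.60 ± 0.23 for Kcne1 (adjusted p = 6.39e-05) and by -0.70 ± 0.14 for Abcc9 (adjusted p = 0.00260). For Kcnh2 it changed by -0.35 ± 0.12 (adjusted p = 0.0699, and 0.0201 with the block). Kcnj5 (0.30 ± 0.12, adjusted p = 0.119), Kcnq1 (-0.61 ± 0.22, adjusted p = 0.0855) and Kcnj2 (-0.88 ± 0.33, adjusted p = 0.0967) did not pass. Over the other settings the Kcnk3 value ranged from 1.11 to 2.32. Single libraries decided some of the interaction calls. The Kcnj8 value was 1.29 (adjusted p = 0.213) without E12.5 replicate 2, and without E16.5 replicate 1 Abcc9 no longer passed (-0.56, adjusted p = 0.0994) and Kcnj2 did (-1.31, adjusted p = 0.0432).

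Within each chamber, comparisons added after seeing the data gave the path of each gene. In atrial-like barcodes 6 members rose and 2 fell between E12.5 and E16.5 (13.5% of genes higher, 11.4% lower), and in ventricular-like barcodes 6 rose and 2 fell (27.1% and 32.2%). Kcnk3 rose in atrial-like barcodes by 0.75 ± 0.10 (adjusted p = 5.80e-06) and fell in ventricular-like ones by 1.41 ± 0.08 (adjusted p = 6.10e-12). Over the other settings its atrial-like change ranged from 0.60 to 0.95 and its ventricular-like change from -1.57 to -0.36, so the size of the fall depended on the setting. Kcnj3 rose in atrial-like barcodes by 1.07 ± 0.10 (adjusted p = 3.68e-08), while its ventricular-like change was 0.01 ± 0.09 (adjusted p = 0.905). Kcne1 rose in ventricular-like barcodes by 1.22 ± 0.10 (adjusted p = 4.30e-09), while its atrial-like change was -0.38 ± 0.21 (adjusted p = 0.190). Abcc9 fell in atrial-like barcodes by 0.41 ± 0.12 (adjusted p = 0.0207) and rose in ventricular-like ones by 0.29 ± 0.07 (adjusted p = 0.00194). With the library as a block, these stage comparisons rest on the fitted replicate 1 levels alone. The atrial-like changes were then -0.49 for Kcne1 and -0.34 for Abcc9, and their p is not given. Kcnj2, Kcnq1, Kcnj5 and Kcnj8 rose and Kcnh2 fell in both chambers, with Kcnj2 up by 1.93 ± 0.27 (adjusted p = 1.72e-05) in atrial-like and 2.82 ± 0.13 (adjusted p = 3.84e-13) in ventricular-like barcodes. By library totals, which moved the median of all genes by 0.14 to 0.15 against TMM here, the ventricular-like rises of Kcnj5 (0.13, adjusted p = 0.170) and Abcc9 (0.15, adjusted p = 0.109) no longer passed, and Kcne1 passed as lower in atrial-like barcodes (-0.53, adjusted p = 0.0415). The atrial-like fall of Abcc9 was lost without E12.5 replicate 2 (adjusted p = 0.0917) or E16.5 replicate 1 (adjusted p = 0.207), and Kcne1 fell there without E12.5 replicate 2 (-0.65, adjusted p = 0.0175). The small ventricular-like fall of Kcnh2 (-0.17 ± 0.07, adjusted p = 0.0394) was lost without E12.5 replicate 2 (adjusted p = 0.104), E16.5 replicate 1 (0.223) or E16.5 replicate 2 (0.143).

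**Figure D2:**
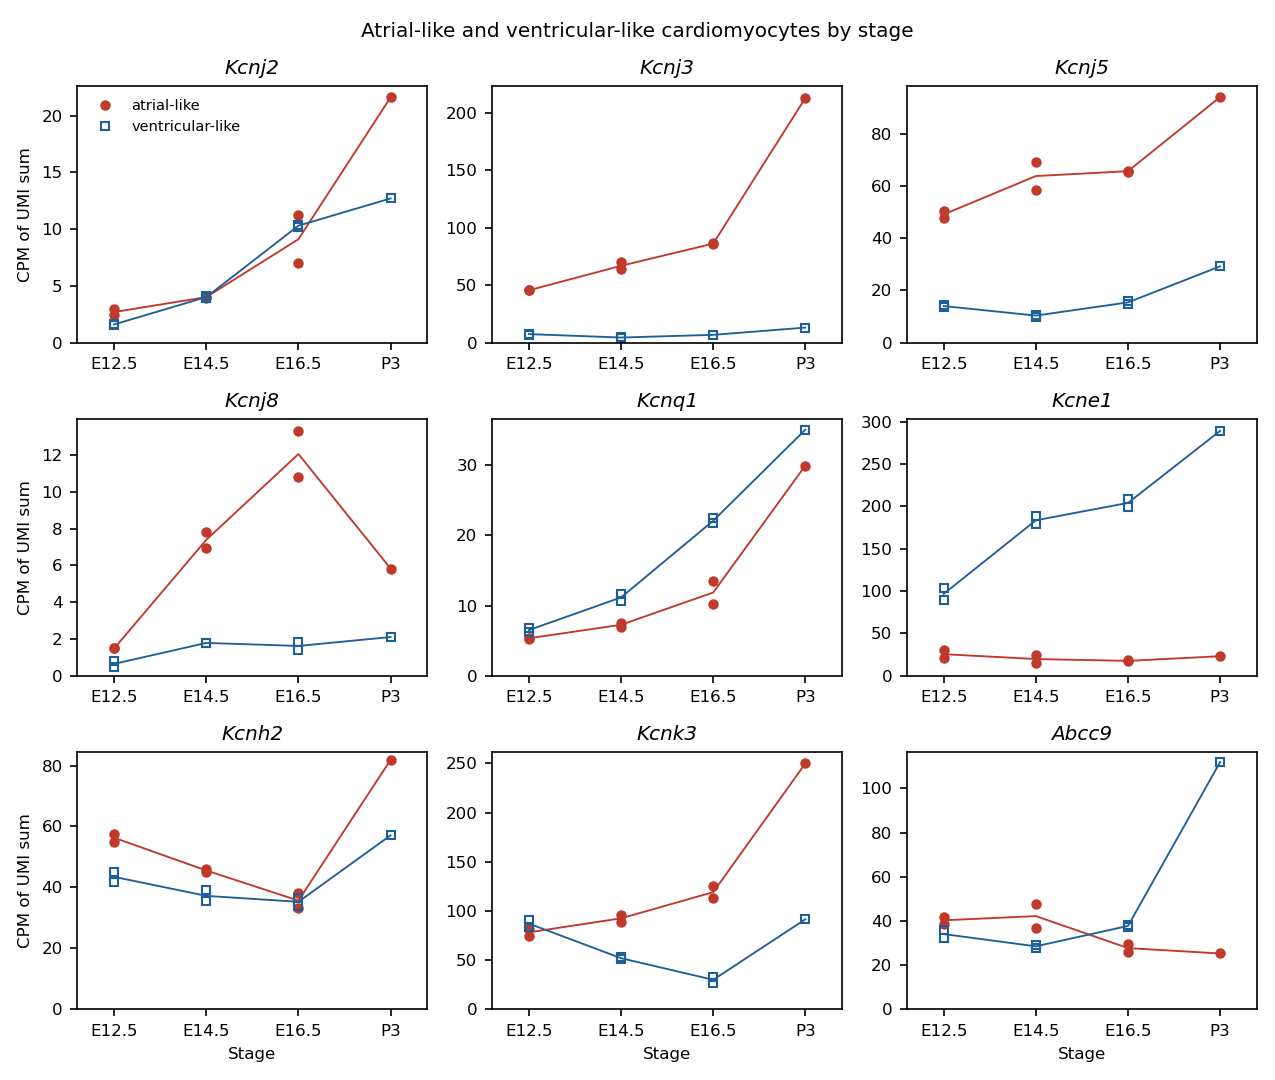
Level of each gene (CPM of summed UMIs, linear axis) in atrial-like and ventricular-like cardiomyocytes by stage, with one point per library. The chambers separated for Kcnj3 and Kcnj5 (atrial-like higher) and for Kcne1 (ventricular-like higher) at every stage from E12.5, and for Kcnk3 the atrial-like class went from just below the ventricular-like one at E12.5 to 113 and 125 against 26.7 and 32.9 CPM at E16.5.

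Within the ventricular-like class, barcodes were further split at 1000 CPM of Nppa, which encodes atrial natriuretic peptide and is known in the embryonic ventricle for marking the inner, trabecular muscle. This split was chosen after seeing the data. It put 388 and 481 barcodes above the split at E12.5, 238 and 237 barcodes at E14.5, then 292 and 292 at E16.5, against 1032 and 1401, 2256 and 1917, and 2908 and 2758 below it. Hey2, known as a gene of the outer compact muscle, was at 33.6 and 31.9 CPM above and 57.6 and 69.5 below the split at E12.5, and Sln, an atrial gene of the chamber rule, at 0.571 and 0.95 against 5.12 and 6.33 CPM. The atrial markers summed, Nppa among them, went the other way from Sln at E12.5, with values given below.

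Kcnk3 was higher in the Nppa-high barcodes at E12.5, E14.5 and E16.5. Kcne1 was lower in them at E12.5 and E14.5, but at E12.5 it did not pass under the stricter chamber rule. At E12.5, 5 members were higher and 1 lower (13.7% and 13.1% of 13255 genes), at E14.5 4 and 1 (5.33% and 2.95%), and at E16.5 3 and 1 (3.81% and 1.49%). Kcnk3 was at 177 and 203 against 47.0 and 52.8 at E12.5, 136 and 128 against 41.6 and 43.4 CPM at E14.5, and 57.0 and 76.2 against 23.2 and 27.9 at E16.5. The differences of 1.92 ± 0.10 (adjusted p = 8.80e-12), 1.62 ± 0.10 (adjusted p = 7.78e-10) and 1.32 ± 0.11 (adjusted p = 4.79e-08) were each larger than the spread between libraries. The value at P3, where there was 1 library and no test, was 103 against 87.7 CPM. The E12.5 Nppa-high level was also above the atrial-like level of 74.3 and 81.9 CPM, a comparison that was not tested.

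Kcne1 was at 49.3 and 38.2 against 125 and 106 CPM at E12.5 (-1.41 ± 0.13, adjusted p = 7.44e-08), 101 and 122 against 197 and 186 at E14.5 (-0.80 ± 0.13, adjusted p = 2.52e-04), and 200 and 174 against 210 and 201 at E16.5 (-0.18 ± 0.12, adjusted p = 0.459, and 0.00906 with the library as a block). Kcnj3 was higher in the Nppa-high barcodes by 1.09 ± 0.15 at E12.5 (adjusted p = 1.82e-05), 1.81 ± 0.22 at E14.5 (adjusted p = 9.99e-06) and 0.85 ± 0.18 at E16.5 (adjusted p = 0.00508). Kcnj5 was higher by 0.82 ± 0.10 at E12.5 (adjusted p = 4.33e-06) and 0.95 ± 0.14 at E14.5 (adjusted p = 1.18e-04), and by 0.32 ± 0.12 at E16.5 (adjusted p = 0.124, and 0.0495 with the block). Kcnq1 differed by -0.03 ± 0.14 at E12.5 (adjusted p = 0.907), where its partner Kcne1 differed 2.66-fold. Under the stricter chamber rule 1 member, Kcnk3, passed at E12.5 in place of the 6 above, so the E12.5 calls of Kcne1, Kcnj3 and Kcnj5 were lost. Over the other settings the E12.5 difference ranged from 1.75 to 2.05 for Kcnk3 and from -1.64 to -0.32 for Kcne1. It ranged from 0.22 to 1.15 for Kcnj3 and from 0.60 to 0.94 for Kcnj5. The E14.5 Kcne1 difference was -0.64 without replicate 1 (adjusted p = 0.112), and the E16.5 Kcnj3 difference 0.54 without replicate 2 (adjusted p = 0.409). The smaller calls of Kcnh2 (0.24 ± 0.08 at E12.5 and 0.32 ± 0.09 at E16.5) and of Kcnq1 at E16.5 (-0.38 ± 0.11, and -0.33 with adjusted p = 0.124 by library totals) were lost when either library was left out, and those of Abcc9 at E12.5 (0.29 ± 0.08) and E14.5 (0.56 ± 0.10) without E12.5 replicate 1 (adjusted p = 0.0615) and E14.5 replicate 2 (adjusted p = 0.121). The summed atrial markers, Nppa among them, were at 22176 and 21025 against 12371 and 11464 at E12.5, and the part of mixed barcodes in these differences was not tested.

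**Figure D3:**
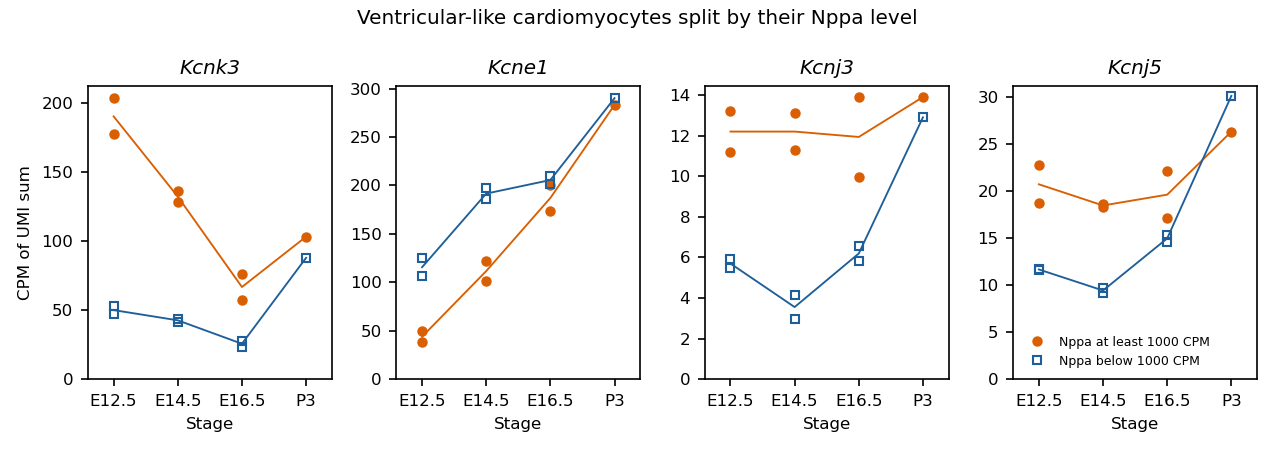
Levels (CPM of summed UMIs, linear axis) of 4 genes in ventricular-like barcodes above and below 1000 CPM of Nppa, by stage, with one point per library. Kcnk3 lay higher above the split at each stage, by the most at E12.5 (177 and 203 against 47.0 and 52.8 CPM), and Kcne1 lay lower above the split at E12.5 and E14.5.

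Mural barcodes, the pericytes and smooth muscle cells of vessels, were taken as those with at least 3 UMIs of Rgs5, a pericyte gene, among barcodes that did not pass the cardiomyocyte rule. They numbered 56 at E8.5, 73 and 75 barcodes at E10.5, 137 and 172 barcodes at E12.5, 50 and 26 barcodes at E14.5, 142 and 101 barcodes at E16.5 and 775 barcodes at P3. The class did not hold the same mural programme at every stage. At E16.5 Pdgfrb was at 308 and 402 CPM, Higd1b at 439 and 469 and Ndufa4l2 at 1222 and 1358. At E12.5 Pdgfrb was at 66.4 and 76.7, Ndufa4l2 at 8.88 and 8.08, and the pericyte genes Higd1b and Vtn were at 0 in both libraries. Rgs5, Notch3, Cspg4, Myh11 and Mcam were also lower at E12.5 than at E16.5. Acta2 and Tagln went the other way. Acta2 was at 1579 and 1353 CPM at E12.5 and 1075 and 916 at E16.5, and Tagln at 1199 and 1011, then 322 and 290. The part of these marker differences in the member levels of the class was not tested. At E8.5 and E10.5 Pdgfrb was at 24.6 to 30.2 CPM with no Higd1b UMI, so there the class is better described as Rgs5-positive barcodes.

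Kcnj8 and Abcc9, the ATP-sensitive channel pair, rose together in mural barcodes. Kcnj8 had no UMI at E8.5 or in either E10.5 library and was at 5.02 and 7.74 CPM at E12.5, 133 and 157 CPM at E14.5, 457 and 443 CPM at E16.5 and 363 CPM at P3. Abcc9 was at 0 at E8.5, 0 and 0.687 CPM at E10.5, 7.73 and 3.03 CPM at E12.5, 67.3 and 87.8 CPM at E14.5, 215 and 225 CPM at E16.5 and 225 CPM at P3. From E12.5 to E16.5 Kcnj8 rose 74.2-fold (6.21 ± 0.18, adjusted p = 1.89e-15) and Abcc9 44.8-fold (5.48 ± 0.19, adjusted p = 2.67e-14). Kcnq1 also passed (2.35 ± 0.72, adjusted p = 0.0206), but its E16.5 libraries stood at 4.75 and 0.918 CPM and the second lay within the E12.5 values of 0.386 and 1.01. Without E16.5 replicate 1 the Kcnq1 change was 0.40 (adjusted p = 0.943) and without E12.5 replicate 1 it was 1.86 (adjusted p = 0.119), while Kcne1 passed without E12.5 replicate 1 (1.92, adjusted p = 0.0488, against 1.45 ± 0.63 and 0.0966 with it). These 3 of the 9 members passed, against 27.0% of 15002 genes in either direction, and 0 members fell by edgeR, by DESeq2 or at an unadjusted p under 0.05.

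The genes neighbour each other on chromosome 6, in the same orientation and 16247 bases apart, and their start regions are shown for that reason. For Kcnj8 the 250 bases before the start are chr6:142571615-142571864 and for Abcc9 chr6:142702275-142702524 (both minus strand, RefSeq, GRCm38.p6), with capitals at motif matches.

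Kcnj8: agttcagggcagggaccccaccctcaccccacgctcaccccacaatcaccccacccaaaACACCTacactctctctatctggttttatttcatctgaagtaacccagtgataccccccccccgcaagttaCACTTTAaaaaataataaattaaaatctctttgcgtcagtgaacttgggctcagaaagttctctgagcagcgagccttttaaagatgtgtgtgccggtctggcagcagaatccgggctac

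Abcc9: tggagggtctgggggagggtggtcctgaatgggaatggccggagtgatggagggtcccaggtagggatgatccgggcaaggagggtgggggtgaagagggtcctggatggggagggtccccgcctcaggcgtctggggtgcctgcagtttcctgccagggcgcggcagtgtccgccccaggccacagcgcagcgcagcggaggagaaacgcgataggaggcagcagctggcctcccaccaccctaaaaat

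The Kcnj8 window held the T-box half-site on the minus strand 191 to 186 bases before the start and the NKX2-5 motif TNAAGTG on the minus strand 120 to 114 bases before it, a motif found in 10.1% of windows. The Abcc9 window held none of the 6 motifs. G and C made up 49.2% of the Kcnj8 window and 66.8% of the Abcc9 window, and the median of all windows was 52.4%.

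Mural barcodes were then set against other barcodes that were neither cardiomyocytes nor erythroid (globin above 10% of UMIs) and held no Rgs5 UMI. Non-cardiomyocyte barcodes with some Rgs5 UMIs but fewer than 3 were in neither group. Against these other barcodes, 2 members were higher in mural barcodes at both E14.5 and E16.5, and 0 were lower by edgeR or DESeq2. By edgeR at an unadjusted p under 0.05, 1 was lower at each stage. Of all genes, 2.89% were higher and 3.63% lower at E14.5, but 8.72% and 9.85% at E16.5. Kcnj8 was at 133 and 157 against 11.9 and 11.8 CPM at E14.5 (3.45 ± 0.20, adjusted p = 5.38e-10) and at 457 and 443 against 14.3 and 12.4 CPM at E16.5 (4.97 ± 0.13, adjusted p = 1.59e-16, 31.4-fold). Abcc9 was at 67.3 and 87.8 CPM at E14.5, when the other barcodes held 244 of 19940714 UMIs in replicate 1 (12.2 CPM) and 196 of 15633368 in replicate 2 (2.46 ± 0.23, adjusted p = 5.71e-07) and at 215 and 225 against 15.4 and 14 CPM at E16.5 (3.80 ± 0.12, adjusted p = 6.57e-15, 13.9-fold). At E12.5, 2 members were higher and 2 lower (9.65% and 11.8% of genes). Kcnj8 (1.53 ± 0.33, adjusted p = 0.00158) and Kcnk3 (1.05 ± 0.32, adjusted p = 0.0209) were the higher, Kcnj2 (-1.47 ± 0.39, adjusted p = 0.00927) and Kcnq1 (-1.90 ± 0.55, adjusted p = 0.0163) the lower, and Abcc9 differed by 0.72 ± 0.31 (adjusted p = 0.113). Kcnk3 was lower in mural barcodes than in cardiomyocytes at E12.5 (-3.26 ± 0.22, adjusted p = 9.50e-11). The 11 cardiomyocyte markers summed to 1606 and 1240 CPM in E12.5 mural barcodes, and their sum in the compared barcodes is not given here. Their part in the Kcnk3 difference was not tested. With a Tnnt2 minimum of 3000 CPM, which moves weaker cardiomyocytes into the compared barcodes, that difference was -1.04. Against other barcodes at E14.5, Kcnk3 differed by 1.26 ± 0.66 (adjusted p = 0.341). At E12.5 each library alone supported fewer calls. Without replicate 1, Kcnk3 (0.48, adjusted p = 0.514), Kcnj2 (adjusted p = 0.139) and Kcnq1 (adjusted p = 0.162) no longer passed, while Kcnj5, which had 0 UMIs in the mural barcodes of replicate 2, did (lower, adjusted p = 0.0181), and without replicate 2, Kcnj8 (0.95, adjusted p = 0.265), Kcnj2 (adjusted p = 0.0556) and Kcnq1 (adjusted p = 0.104) did not, while Abcc9 did (1.38, adjusted p = 0.0182). At E16.5 Kcnk3 was higher in mural barcodes by 1.27 ± 0.50 (adjusted p = 0.0835), and by 2.01 without replicate 1 (adjusted p = 0.0477).

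Set against cardiomyocytes of the same libraries, the mural class had more Kcnj8 and, from E14.5, more Abcc9, and less of most other members. At E12.5, 1 member was higher and 7 lower in mural barcodes (25.1% and 28.6% of genes), at E14.5 2 and 6 (15.2% and 17.5%), and at E16.5 2 and 7 (25.6% and 28.5%). Kcnj8 was higher by 2.93 ± 0.37 (adjusted p = 1.16e-06), 5.72 ± 0.23 (adjusted p = 8.06e-14) and 7.21 ± 0.14 (adjusted p = 4.15e-19), the last 148-fold. Abcc9 was lower at E12.5 (-2.91 ± 0.21, adjusted p = 3.35e-10) and higher at E14.5 (1.06 ± 0.20, adjusted p = 2.54e-04) and E16.5 (2.24 ± 0.11, adjusted p = 2.27e-13). The other 7 members were all lower at E16.5, by between 2.61 ± 0.32 for Kcnk3 (adjusted p = 5.96e-07) and 5.71 ± 0.66 for Kcnj3 (adjusted p = 2.97e-07), the latter resting on 1 mural UMI in replicate 1 and 0 in replicate 2. TMM moved the median of all genes by -0.17 to -0.31 in these comparisons, relative to library totals, and the calls of the members were the same by both. At E14.5 Kcnj5 and Kcnq1 had no UMI in the mural barcodes of either library, which puts Kcnj5 at least 5.11-fold and Kcnq1 at least 3.82-fold below cardiomyocytes, taking 3 counts over both libraries as the floor. Without replicate 1 of E14.5, which leaves 26 mural barcodes, Kcnj3 (-1.92, adjusted p = 0.369), Kcnk3 (-1.81, adjusted p = 0.0697) and Kcnj5 (adjusted p = 0.0564) no longer passed there.

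The shares of barcodes with a UMI moved the same way. In mural barcodes Kcnj8 was detected in 6.57% and 4.07% at E12.5, 30.0% and 38.5% of them at E14.5, 81.0% and 84.2% of them at E16.5 and 61.5% at P3, and after thinning to 2000 UMIs in 0% and 0%, 18% and 30.8%, 60.6% and 52.5%, and 40.9%. At E16.5, 105 of 115 Kcnj8-positive barcodes in replicate 1 and 74 of 85 in replicate 2 also had Abcc9, against 5 of 27 and 3 of 16 without a Kcnj8 UMI. After thinning, these were 39 of 86 and 18 of 53 against 13 of 56 and 16 of 48, so in replicate 2 the shares were close (34.0% and 33.3%). At P3, 416 of 477 Kcnj8-positive barcodes had Abcc9 against 80 of 298 without, and 206 of 317 against 76 of 458 after thinning. Mural barcodes that also held a UMI of Pdgfrb, Notch3 or Cspg4 had Kcnj8 at 477 and 464 at E16.5 and 397 CPM at P3, and the 6, 7 and 53 barcodes without one had 115, 82.9 and 24.8 CPM. At P3 the 7 endothelial markers summed to 1220 CPM in the mural class, against 377 and 163 at E16.5.

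**Figure D4:**
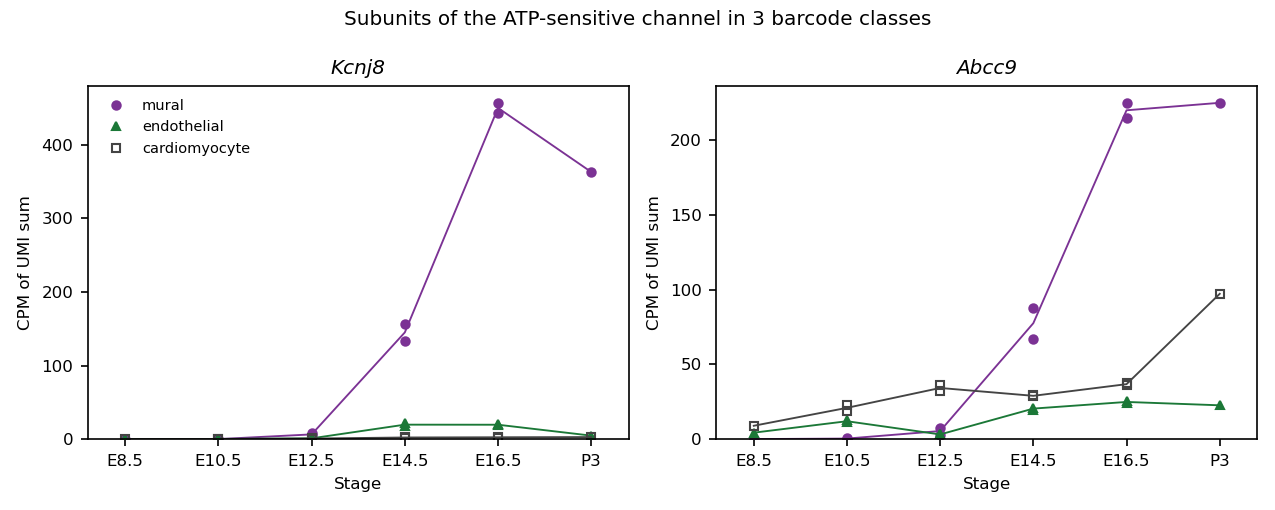
Levels (CPM of summed UMIs) of Kcnj8 and Abcc9 by stage in mural, endothelial and cardiomyocyte barcodes, with one point per library. Mural Kcnj8 went from 5.02 and 7.74 CPM at E12.5 to 457 and 443 at E16.5, and Abcc9 from 7.73 and 3.03 to 215 and 225.

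Some of the members were also found in other classes of barcodes. Endothelial barcodes (at least 5 UMIs of Pecam1, Cdh5, Tie1 and Egfl7) had Kcnj8 at 1.29 and 0.738 CPM at E12.5, 21.2 and 18 CPM at E14.5, 20.4 and 18.6 CPM at E16.5 and 4.70 CPM at P3. Abcc9 in the same barcodes was at 12.6 and 11.3 CPM at E10.5, 3.14 and 3.1 CPM at E12.5, 19.7 and 21.1 CPM at E14.5, 24.4 and 25.3 CPM at E16.5 and 22.6 CPM at P3. Kcnj2 there was at 3.98 and 5.61 CPM at E12.5 and 9.64 and 8.64 CPM at E14.5, above the cardiomyocyte values of those stages, and at 5.42 and 6.47 at E16.5, below them. In epicardial barcodes (at least 5 UMIs of Upk3b, Upk1b and Krt19) Kcnj8 was at 13.9 and 9.91 at E12.5, when the mural class held 5.02 and 7.74. These levels were compared with no test. In the embryos of E10.5, Kcnh2 was at 29.0 and 28.6 CPM in barcodes that were neither cardiomyocytes nor mural, level with the 24.9 and 28.8 CPM of cardiomyocytes, whereas in the hearts of E12.5 it was at 3.51 and 5.59 against 43.6 and 46.3 CPM.

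P3, counted as 1 library, was set beside the mean of the E16.5 libraries with no test and with exact 95% Poisson intervals that cover counting error only. From visual examination, the paper reports significant batch differences at P3 and at no other stage. The P3 matrix also came without the empty barcodes and with another Cell Ranger version. Age cannot be told apart from batch and processing in these ratios. In cardiomyocytes 4 of the 9 members were past 2-fold higher and none lower, against 8.63% and 11.9% of 14155 genes. The ratio to E16.5 was 3.48 (interval 3.38 to 3.57) for Kcnj3, 3.19 (3.14 to 3.25) for Kcnk3, 2.65 (2.60 to 2.70) for Abcc9 and 2.05 (1.99 to 2.11) for Kcnj5. The barcodes of suffix 1 and suffix 2 differed by more than these intervals, and gave 3 and 5 members past 2-fold. Kcnj5 was 1.82 and 2.64 times E16.5 in them, Kcnj2 was at 7.98 CPM and 29.7 CPM, or 0.782 and 2.92 times E16.5, and Abcc9 at 84.8 and 129 CPM. Atrial-like barcodes were 1201 of 7133 cardiomyocytes at P3, but 282 of 3578 and 291 of 3444 at E16.5. Within atrial-like and ventricular-like barcodes the ratio to E16.5 was 2.47 and 1.94 for Kcnj3. For Kcnj5 it was 1.43 and 1.90, so neither chamber was past 2-fold. The part of the chamber share in the ratios over all cardiomyocytes was not tested. Abcc9 was 2.96 times its E16.5 level in ventricular-like barcodes (112 against 38.3 and 37.1 CPM) and 0.911 times in atrial-like ones (25.2 against 25.7 and 29.6 CPM), and Kcnk3 was above both E16.5 libraries in each chamber (91.4 against 26.7 and 32.9, and 250 against 113 and 125 CPM). Atrial-like Kcnj3 was at 213 CPM, and Kcne1 stood at 23.2 CPM in atrial-like and 289 in ventricular-like barcodes. In mural barcodes none of the 7 members that could be compared was past 2-fold (17.7% of 11720 genes higher, 1.88% lower), with Kcnj8 at 0.807 (0.782 to 0.832) and Abcc9 at 1.02 (0.981 to 1.06) times E16.5.

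The other potassium and sodium channel genes, 100 in 6 lists drawn up by gene family, were counted for context. Between E12.5 and E16.5 in cardiomyocytes 12 of the 48 tested rose and 22 fell, with a median log2 fold change of -0.74, against 29.7% and 28.6% of all genes and a median of 0.01. Kcnip2, an accessory subunit of the transient outward channel, rose most, from 0.293 and 0.201 to 14.6 and 16.4 CPM (6.18 ± 0.17, adjusted p = 4.20e-15). At E16.5, 11 of 35 were higher and 6 lower in atrial-like barcodes (33.2% of all genes in either direction), with Kcnh7, an ERG relative, at 43.0 and 36.9 against 1.03 and 0.655 CPM (5.37 ± 0.16, adjusted p = 2.99e-16). At E12.5 Kcna5, the pore of the ultrarapid delayed rectifier, was at 30.7 and 34.0 against 0.427 and 0.431 CPM (6.06 ± 0.21, adjusted p = 5.38e-15). In mural against other barcodes at E16.5, 6 of 56 were higher and 7 lower, near the 8.72% and 9.85% of all genes, with Kcnmb1, the smooth muscle beta subunit of the calcium-activated channel, at 16.1 and 11.9 against 0.154 and 0.152 CPM (6.45 ± 0.38, adjusted p = 1.39e-10).

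Genes whose levels ran most like each member were named by Pearson's r of log2(CPM + 1) over 74 sums of a library and a class with at least 20 barcodes, among 9777 genes. These points share libraries and depth, so r is a description only. For Kcnj3 the nearest were Atp2a2 (0.924), Lmod2 (0.903) and Txlnb (0.896), for Kcne1 Trim63 (0.947) and Rbm20 (0.946), for Kcnk3 Jph2 (0.920) and for Kcnj5 Idh3a (0.866). Kcnq1 ran with Myzap (0.848) and Kcnj8 with Foxs1 (0.855), Thy1 (0.848) and Colec11 (0.844). Kcnh2 ran most like Efnb3 (0.861) and Igfbpl1 (0.839), Abcc9 like Trib2 (0.798), and Kcnj2 had the lowest top value, 0.658 with Afap1l1.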

How the data were processed

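Single-cell RNA-seq counts were taken from 10 deposited matrices of wild-type mouse embryos (E8.5, E10.5) and hearts (E12.5 to P3). The files deposited by the authors hold whole UMI counts (genes by barcodes), made with Cell Ranger (matrix header 3.0.0 for P3 and 3.1.0 for the others), while the submitters' processing notes name Cell Ranger 2.1.1, Seurat 3.1.1 and mm10. The P3 matrix held 10964 barcodes and the others 737280 each, empty ones included, so cells were chosen here by UMIs (at least 2000) and mitochondrial share (at least 1%). Doublets were not removed, and 1 to 15 barcodes per embryonic library and 61 at P3 passed both the Tnnt2 and the Rgs5 rule and were counted as cardiomyocytes. The 9 genes and the lists of other channels and markers were chosen with earlier results of these data known.

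UMIs were summed per library and class, with the library as the replicate. The sums were tested in edgeR 4.0.16 (quasi-likelihood, TMM scaling, default filter on low counts), and p-values were adjusted over all genes tested. One fit covered the 8 libraries of E10.5 to E16.5, one the 12 chamber sums, one the 18 class sums and one the 12 sums split by Nppa. The scripts were tested on simulated data with 200 changed genes. Alternatives were DESeq2 1.42.0, library totals, no filter on low counts, a block on replicate number or library, other gates and leaving out each library. Deviations of same-numbered libraries correlated by -0.09 to 0.04 in pairs with E10.5 and 0.11 to 0.29 among heart stages. Classes that share 1 library correlated by 0.07 to 0.77, a range that holds the values among heart stages. Stage replicate numbers were nevertheless not taken as pairing libraries. The main fits had no library block and so treated the classes of 1 library as independent. All 9 genes were tested in every edgeR comparison, but values are not printed for each gene in each of them. Of the listed channels at most 3 per comparison qualified, those with the largest called change and no overlap of libraries. Levels at E8.5 and P3 have 1 library and no test, and Poisson and binomial intervals (exact, 95%) cover counting error only. Promoter windows were found for 6 members in the RefSeq table. Droplet chemistry and enzymes are given differently in the labels and the methods.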

Additional observations from a re-analysis of the deposited data

Results flagged for a closer look

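The difference between atrial-like and ventricular-like cardiomyocytes changed between E12.5 and E16.5 for 5 of the 9 genes by edgeR's interaction test, against 6.81% of all genes higher and 4.64% lower, which is what brought them here. The change in the atrial minus ventricular log2 fold change was 2.17 for Kcnk3, 1.74 for Kcnj8, 1.06 for Kcnj3, -0.70 for Abcc9 and -1.60 for Kcne1. The Kcnk3 value ranged from 1.11 to 2.32 over the other settings. For Kcnj8 and Abcc9 the call was lost when 1 library was left out, as given above. No cause was tested.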

How the results depend on the processing

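Of 327 recounts of the members called under other settings, 293 stayed within 1.5 times the value given, and of 2846 refitted member changes 2614 kept their side of the threshold (with 65 changes of sign among those never called), 161 lost and 55 gained a call, and 16 turned sign with a call on one side. Thinning each barcode to 2000 UMIs, which leaves fewer counts, lowered the calls to 2 (E12.5 against E10.5), 3 (E14.5 against E12.5), 4 (E16.5 against E12.5), 3 and 3 (atrial against ventricular at E12.5 and E14.5), 3 (interaction), 1 and 4 (atrial-like and ventricular-like change), 0 and 1 (mural against other at E12.5 and E14.5, edgeR, 1 at an unadjusted p under 0.05 at E12.5), 4 (mural against cardiomyocytes at E14.5) and 2, 3 and 1 (Nppa split), and turned Kcnq1 (0.26) and Abcc9 (-0.06) between chambers at E12.5 and E14.5, Kcnh2 in the Nppa split at E16.5 (-0.13) and Kcnj8 in mural barcodes at E12.5 (-5.70 and -3.94, with no mural UMI left). With Tnnt2 at 3000 CPM, 9 members passed in mural against other barcodes at E12.5, Abcc9 (-1.07), Kcnh2 (-1.81) and Kcnk3 (-1.04) turned there, and Kcnj3 turned from E12.5 to E16.5 in all (-0.02) and ventricular-like (-0.47) cardiomyocytes. Chamber shares of 0.8 and 0.2 gave 1 and 3 calls in the Nppa split at E12.5 and E14.5 and turned Kcnk3 between chambers at E12.5 (0.79), Kcnj5 in the interaction (-0.56) and ventricular-like Kcnh2 (0.01). Chambers by Sln and Myl2 gave 3 calls at E12.5 and 5 for the atrial-like change, and ventricular-like Kcnj3 of -0.34. The study's mitochondrial ceiling gave 3 and 2 calls in the Nppa split at E12.5 and E16.5, Kcnk3 of 0.06 between chambers at E12.5 and atrial-like Abcc9 of 0.01. Without the 1% mitochondrial minimum 8 members passed the interaction. Counting mural barcodes whatever their Tnnt2 gave 5 calls against other barcodes at E16.5 and 5 from E12.5 to E16.5, and asking for Pdgfrb, Notch3 or Cspg4 gave 2 at E12.5. DESeq2 called 2 in the Nppa split at E16.5. At P3, 1 mural member passed 2-fold by the mean of single barcodes and 1 in the barcodes of suffix 2. Leaving out a library gave 3 to 4 calls between chambers at E12.5, 2 in mural against other barcodes at E12.5 without either library, 5 to 8 in mural against cardiomyocytes at E14.5 and 1 to 2 in the Nppa split at E16.5. The causes were not tested. Apart from the values given beside the results, the block on replicate number or library changed no count by over 1.5 times. It raised the members called in the Nppa split at E16.5 from 4 to 6. In cardiomyocytes from E12.5 to E16.5 the block on replicate number gave Kcnh2 an adjusted p of 0.0462 (edgeR, against 0.0647 without it). With 2 libraries per stage and under 60 mural barcodes per library at E14.5, small changes of low genes in mural barcodes were not detectable.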

Other observations

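Cardiomyocytes with a UMI of Shox2, a gene of the sinus node, numbered 66 and 88 in E12.5, 52 and 28 in E14.5, 35 and 30 in E16.5 and 54 in P3 libraries. In them Kcnj3 was at 43.4 and 47.4, 67.8 and 73.3, 43.1 and 58.2, and 134 CPM, and Kcnj5 at 29.9 and 43.3, 89.6 and 62.5, 71.8 and 99.8, and 125 CPM. Both genes were above the ventricular-like level of each library, with no test run, while Kcnj3 was below the atrial-like level at E16.5 and P3, and Kcne1 was at 30.6 to 111 CPM.

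Barcodes that passed both the Tnnt2 and the Rgs5 rule numbered 11 and 15 at E16.5 and 61 at P3. Their Kcnj8 level was 109 and 109 CPM at E16.5 and 103 at P3, and their Kcne1 level 116 and 57.5 CPM and 177 CPM, each between the cardiomyocyte and the mural level of the library.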
